A study of Mus musculus with 9 samples.

Results

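The 48 genes described here are markers of macrophages and other leukocytes: receptors, signalling adaptors, oxidase subunits, antigen presentation genes and lineage genes. They were chosen by symbol from a list, and all 48 had a row among the 53715 gene IDs of the deposited expression table. RNA came from primary myoblasts, which are muscle precursor cells that fuse into fibres, of the mouse strain C57BL/10ScSn-Dmdmdx/J at passage 1. This strain carries the mdx mutation of the dystrophin gene in every group, so no library comes from muscle cells with intact dystrophin. Glycine, an amino acid, was supplied at 0.2 mM to the cells of 3 libraries and at 0.8 mM to those of 6, and transcript levels are compared between these concentrations. The labels do not name the muscle, the age of the animals, the time in glycine or whether libraries came from separate cultures, so p-values measure the spread between these libraries, which may be technical. The labels number the libraries as 2 series, each with 1 glycine level, so the series and glycine cannot be told apart. A gene that "rose" was higher at 0.8 mM than at 0.2 mM, and a gene that "fell" was lower.

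Macrophages are phagocytes that enter damaged muscle, clear debris and send signals to muscle precursor cells. They sense microbes and dying cells through pattern receptors such as Toll-like receptors and C-type lectins, and they bind antibody-coated targets through Fc receptors, which signal through small adaptor proteins. Engulfed material meets an oxidase that makes superoxide and lysosomal proteins that digest it, and some of the peptides are shown to T cells on MHC class II. The transcription factor PU.1, encoded by Spi1, is a main regulator of genes of this lineage.

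The levels are TPM, which are reads scaled by gene length and then to the same sum in each library. Their depth in reads is unknown, so precision comes from the spread between libraries alone. Of the 48 genes, 44 were above 0 TPM in all 9 libraries, 19 averaged 10 TPM or more and 6 averaged 100 TPM or more. Those 6 were Fcer1g, Lyz2, Cyba, Tyrobp, Clec4e and Clec4d. The summed level of all 48 was 3463 ± 108 TPM (SD, n = 3) at 0.2 mM and 3198 ± 177 TPM (n = 6) at 0.8 mM. The libraries' sums overlapped, with 3340 to 3540 TPM at 0.2 mM and 2965 to 3438 TPM at 0.8 mM. Fcer1g, Lyz2 and Cyba held a large share of this sum. Lyz2 alone was 17% of it at 0.2 mM and 31.6% at 0.8 mM. Without those 3 genes the sum was 1397 ± 34.7 TPM at 0.2 mM and 962 ± 38.3 TPM at 0.8 mM, with no overlap between the groups' libraries. The genes left out include Lyz2, which was higher at 0.8 mM, and Cyba, which was lower. Most of the remaining difference lay in Clec4e, Clec4d and Cd68. They averaged 322, 178 and 182 TPM at 0.2 mM and 143, 90.0 and 57.6 TPM at 0.8 mM, so it does not describe the other genes.

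Lists of markers of other cell types were summed in each library, and which cells their RNA came from was not tested. By the test described below, 16.7% of all 10049 genes tested rose and 9.81% fell. The 14 myoblast and muscle genes summed to 1738 to 2101 TPM at 0.2 mM and 6216 to 7579 TPM at 0.8 mM, and 12 of them rose while 0 fell. Of 10 fibroblast and fibro-adipogenic genes, 6 rose, and their summed level was 2314 to 2697 TPM at 0.2 mM and 2721 to 3296 TPM at 0.8 mM. Of 7 endothelial genes 4 rose, with sums of 11.8 to 12.8 TPM at 0.2 mM and 21.3 to 30.5 TPM at 0.8 mM, and 2 of those 4, Pecam1 and Cdh5, reached 1 TPM in the 0.8 mM libraries alone. The labelled cell type thus had its markers in every library, beside the macrophage genes. T cell genes summed to at most 1.56 TPM in any library, B cell genes to at most 2.43 TPM, natural killer cell genes to at most 0.446 TPM, dendritic cell genes to at most 2.01 TPM, erythroid genes to at most 1.93 TPM and mast cell genes to at most 5.25 TPM. Cd4, Cd8b1, Cd5, Pax5, Nkg7, Gzma, Siglech and Cd209a were listed at 0 in all 9 libraries. In bulk RNA, fewer macrophages and less of an RNA per macrophage cannot be told apart.

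**Figure D1:**
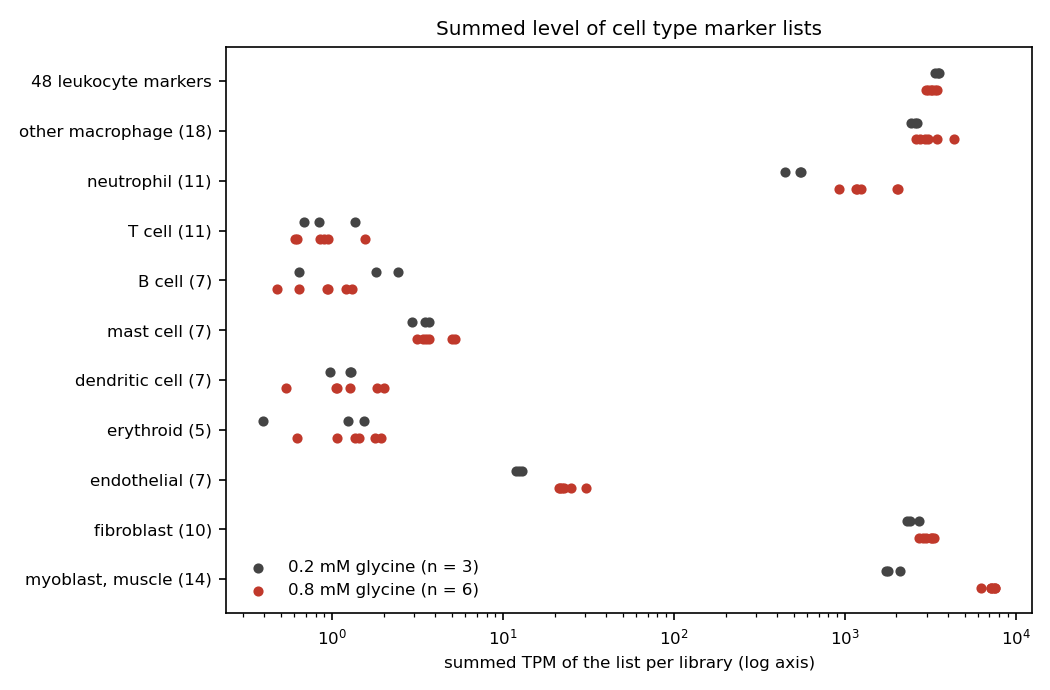
Summed TPM of marker lists in each library, on a log axis, with 1 point per library and the 2 glycine levels in separate colours. Muscle markers lie at 1738 to 2101 TPM at 0.2 mM and at 6216 to 7579 TPM at 0.8 mM, while T cell, B cell and dendritic cell lists stay at or under 2.43 TPM; natural killer cell genes are not drawn because a library was at 0.

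The 11 neutrophil genes summed to 446 to 553 TPM at 0.2 mM and 924 to 2033 TPM at 0.8 mM. Of the 6 tested, 3 rose (S100a8, Camp and Mmp8), beside 16.7% of all genes tested. Most of that sum was S100a8. S100a9, which encodes its partner protein, was at 104 ± 28.6 and 97.4 ± 19.5 TPM (limma adjusted p = 0.825, not passed). Among genes of neutrophil granules, Ltf and Ngp did not pass either, while Camp and Mmp8 rose with no overlap between groups. Camp went from 7.97 to 19.3 TPM on average (limma adjusted p = 0.002041). Mmp8 went from 1.57 to 6.04 TPM on average (limma adjusted p = 2.798e-05). S100a8, a calcium-binding protein of neutrophils and monocytes, was at 433, 405 and 358 TPM at 0.2 mM and between 812 and 1895 TPM at 0.8 mM, and rose by 1.63 ± 0.25 on the log2 scale (limma adjusted p = 0.0005862). The defining neutrophil genes were low: Ly6g was listed at 0 in all 9 libraries, and Mpo, Elane, Cxcr2 and Retnlg failed the filter on low values. The part of neutrophil, muscle and fibroblast RNA in the results below was not tested.

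Genes were tested with limma on log2(TPM + 1) where at least 3 libraries reached 1 TPM, and the threshold was a p under 0.05 after Benjamini-Hochberg adjustment over all 10049 genes tested. Of the 41 marker genes tested, 5 rose (12.2%), 16 fell (39.0%) and 20 did not pass. These counts include Itgam, which passed the filter through the 0.8 mM libraries alone, and Cd83, which passed it through the 0.2 mM libraries alone. Both had to differ to be tested. H2-Eb1, counted among the falls, reached 1 TPM in 3 libraries at 0.2 mM and in 1 at 0.8 mM, so its test also depended on the 0.2 mM libraries. Of all tested genes, 26.6% passed, of which 16.7% of tested genes rose and 9.81% fell. Among all calls 63.1% were rises, but 52.6% after median-ratio scaling and 49.8% after quantile normalization. The marker genes gave 5 rises and 18 falls after median-ratio scaling and 4 rises and 18 falls after quantile normalization. Their median change was -0.31 on the log2(TPM + 1) scale, and the median of all tested genes was 0.06. The 2 groups of libraries did not overlap for 20 of the 41 (48.8%), against 28.2% of all tested genes. Counts for lists of related genes below stand beside the 26.6% of all tested genes that passed. The share of tested genes that passed was 16.7% for the oxidase, 20% for growth and lineage and 33.3% for MHC class II. It was 38.5% for pattern recognition, 50% for Fc receptor signalling and 31.2% for the further macrophage markers.

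**Figure D2:**
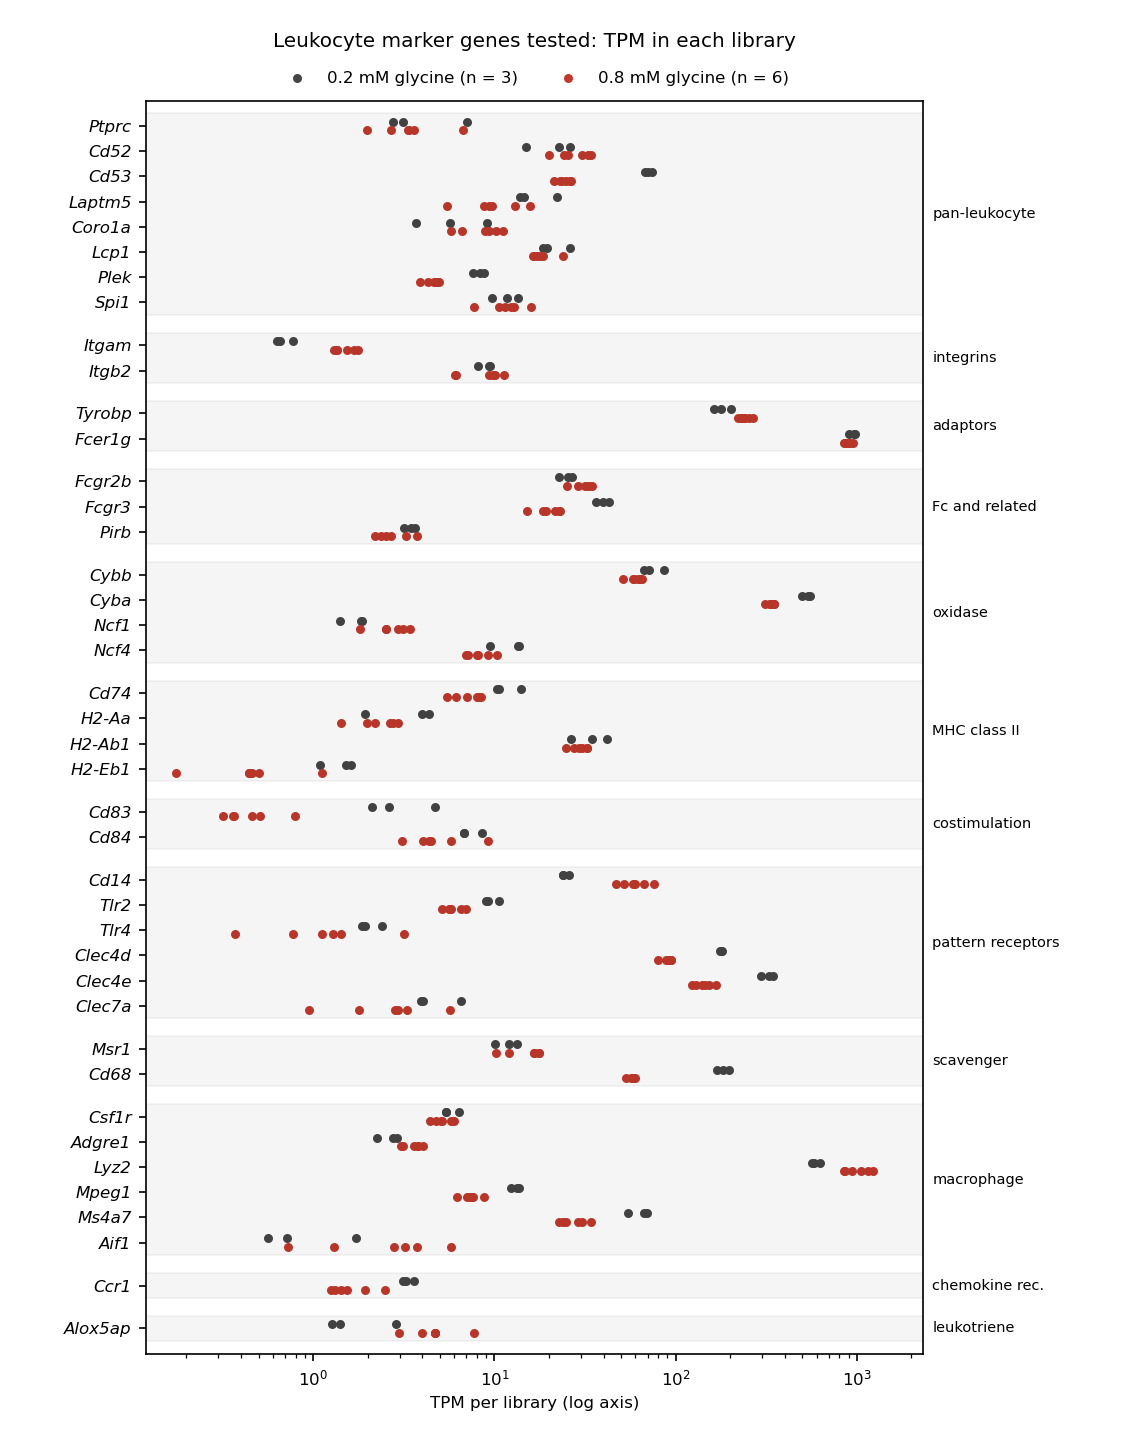
TPM of each of the 41 tested marker genes in each library on a log axis, with genes grouped by role, 1 point per library and the glycine levels in separate colours. Cd68, Cd53, Clec4d and Clec4e lie lower in all 6 libraries at 0.8 mM, and Lyz2, Cd14 and Tyrobp lie higher in all 6.

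**Figure D3:**
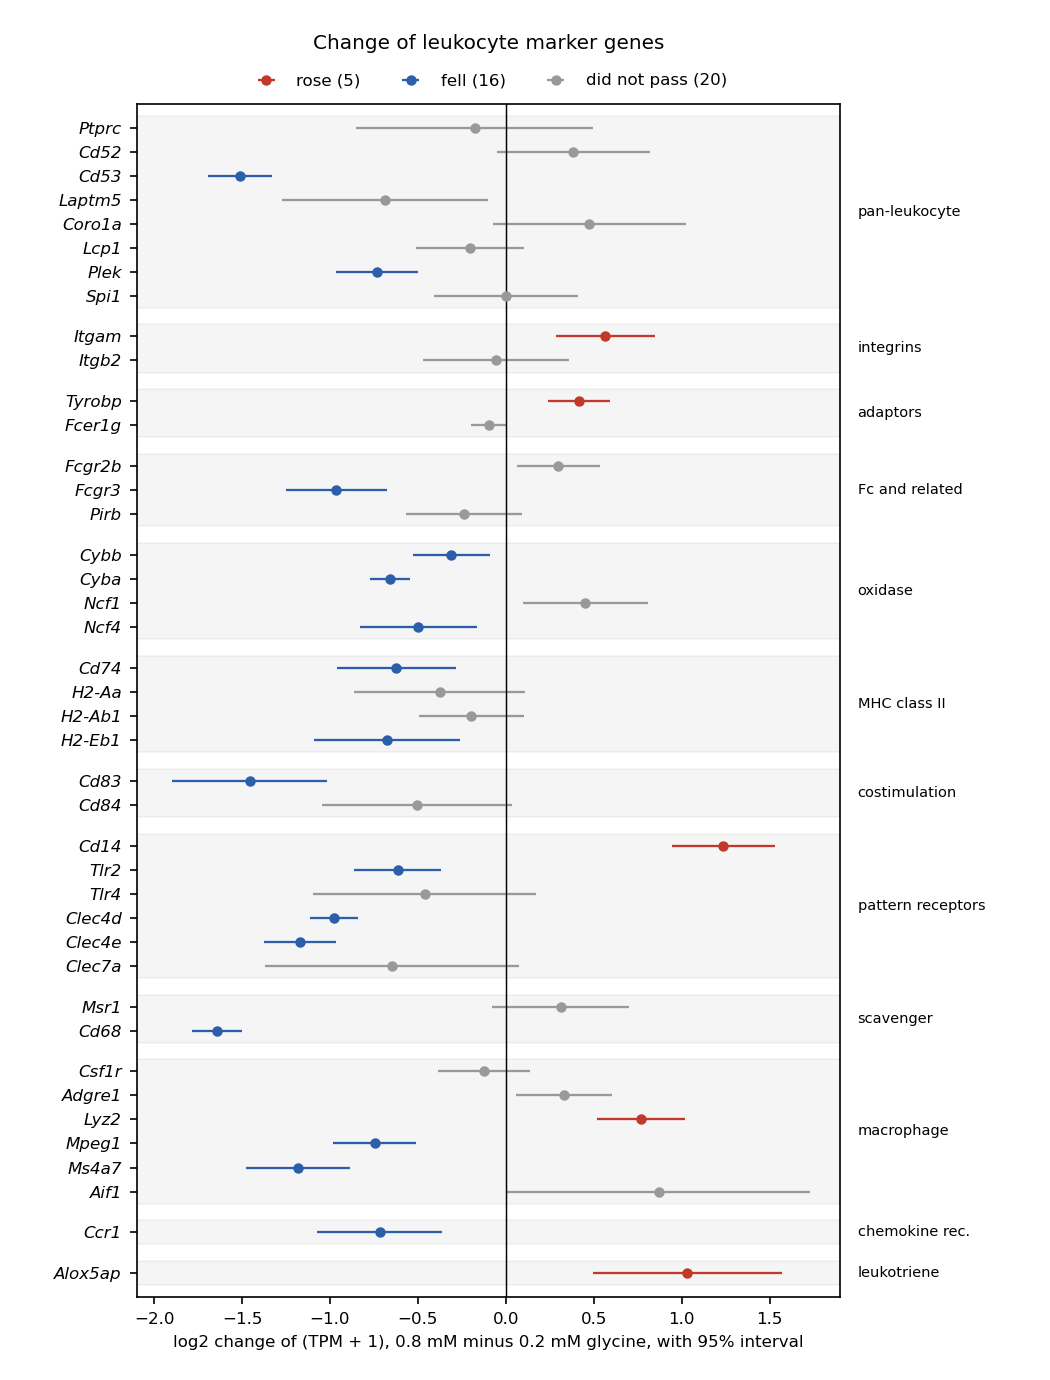
Change of each tested marker gene in log2(TPM + 1) from 0.2 to 0.8 mM, with its 95% interval from limma and colours for genes that rose, fell or did not pass. Changes run from -1.64 for Cd68 to 1.24 for Cd14, and 16 of the 41 genes fell while 5 rose.

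Among the 8 pan-leukocyte genes, 2 fell, 0 rose and 6 did not pass. Cd53, a tetraspanin of leukocyte membranes (GRCm38, chromosome 3, 106759921 to 106790149), was at 73.8, 68.0 and 70.7 TPM at 0.2 mM. At 0.8 mM its lowest, median and highest libraries were at 21.4, 24.2 and 26.6 TPM. Every library at 0.8 mM was below every library at 0.2 mM, and Cd53 fell by 1.51 ± 0.08 (SE) on the log2 scale (limma adjusted p = 2.872e-07). Plek, encoding pleckstrin, a substrate of protein kinase C in platelets and leukocytes, was at 8.32, 8.72 and 7.59 TPM and then between 3.88 and 4.92 TPM, a fall of 0.73 ± 0.11 on the log2 scale (limma adjusted p = 0.000404). An opposite-strand gene, Cnrip1, shares 4.44% of the exon bases of Plek and was itself expressed, at 8.34 and 6.74 TPM.

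The other pan-leukocyte genes had groups that overlapped. Ptprc, which encodes CD45, the phosphatase used to gate leukocytes, was at 4.30 ± 2.38 TPM at 0.2 mM and 3.61 ± 1.62 TPM at 0.8 mM (limma adjusted p = 0.72). Spi1 was at 11.8, 9.70 and 13.6 TPM and then between 7.70 and 15.9 TPM, with a change of 0.00 and a 95% interval from -0.41 to 0.41 on the log2 scale. So PU.1 transcripts were present at both glycine levels, and the data do not separate no change from a change of either sign within that interval. Lcp1, an actin-bundling protein, was at 21.4 ± 4.11 and 18.4 ± 2.80 TPM (limma adjusted p = 0.324), and Coro1a, an actin-binding coronin, at 6.16 ± 2.70 and 8.68 ± 2.10 TPM (limma adjusted p = 0.192). Laptm5, a lysosomal membrane protein, had 16.8 ± 4.65 TPM and 10.3 ± 3.55 TPM (limma adjusted p = 0.0808). Cd52, a small surface glycoprotein, had 21.3 ± 5.72 TPM and 27.9 ± 5.58 TPM (limma adjusted p = 0.186). The summed level of the 8 genes was 161 ± 6.71 TPM and 109.5 ± 11.9 TPM, with most of that difference in Cd53.

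Cd68, a scavenger receptor family glycoprotein of late endosomes and lysosomes that is widely used to stain macrophages, had the largest fall among the 41 genes on the log2(TPM + 1) scale. Cd83, a low gene described below, fell more as a ratio of group means, 6.74-fold against 3.16-fold for Cd68, and more with a pseudocount of 0.1 (-2.48 against -1.66) or 0.5 (-1.87 against -1.65). The promoter of Cd68 is shown because it holds matches to motifs of the macrophage regulators searched here, and those of Clec4d and Clec4e because these neighbouring lectin genes fell together. Itgam, the gene of CD11b, is shown as a marker that rose, although it passed the filter on low values through the 0.8 mM libraries alone. Each sequence is the 250 bases before the gene's RefSeq start, on GRCm38.p6, read 5′ to 3′ on the gene's strand, and capitals mark GAGGAA (a core PU.1 motif) or TGANTCA (an AP-1 motif) on either strand. The windows are chr11:69666171-69666420 on the minus strand for Cd68, chr6:123261857-123262106 on the plus strand for Clec4d, chr6:123289872-123290121 on the minus strand for Clec4e and chr7:128062390-128062639 on the plus strand for Itgam.
Cd68: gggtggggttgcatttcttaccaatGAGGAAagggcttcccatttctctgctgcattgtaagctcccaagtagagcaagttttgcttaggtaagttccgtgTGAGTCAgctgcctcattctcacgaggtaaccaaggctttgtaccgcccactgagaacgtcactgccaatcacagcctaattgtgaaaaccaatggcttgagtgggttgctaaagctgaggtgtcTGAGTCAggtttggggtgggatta
Clec4d: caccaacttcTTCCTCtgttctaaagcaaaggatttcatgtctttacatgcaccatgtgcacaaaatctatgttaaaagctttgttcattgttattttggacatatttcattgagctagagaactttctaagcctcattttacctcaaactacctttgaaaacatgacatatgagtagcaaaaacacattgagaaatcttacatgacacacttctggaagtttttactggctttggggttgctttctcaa
Clec4e: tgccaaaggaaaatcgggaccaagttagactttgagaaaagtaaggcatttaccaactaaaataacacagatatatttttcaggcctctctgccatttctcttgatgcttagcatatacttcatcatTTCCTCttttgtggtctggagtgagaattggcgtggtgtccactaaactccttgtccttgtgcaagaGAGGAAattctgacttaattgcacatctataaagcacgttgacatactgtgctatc
Itgam: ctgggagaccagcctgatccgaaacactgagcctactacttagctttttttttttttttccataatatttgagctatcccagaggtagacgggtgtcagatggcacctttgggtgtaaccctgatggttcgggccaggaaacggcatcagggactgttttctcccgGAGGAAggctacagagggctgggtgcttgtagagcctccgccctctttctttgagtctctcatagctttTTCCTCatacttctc

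The set of RefSeq promoters available here had such a window for 33 of the 48 genes. The others, among them Cd14, Tyrobp and Alox5ap, which rose, were not searched. Several genes had more than 1 start, and a gene was counted where any of its windows held the letters. GAGGAA or its reverse complement was found for 15 of the 33 (45.5%) and for 25.9% of 27025 genes. TGANTCA was found for 5 of the 33 (15.2%) and for 7.82% of all. The PU.1 letters were found for 7 of 13 genes that fell, 5 of 12 that did not pass and 1 of 2 that rose, the last being Itgam. Lyz2, the other gene that rose and had a window, held neither motif. Cd68 had GAGGAA at position -225 and TGAGTCA at -149 and -24, and the 2 motifs did not overlap. A match describes letters in this window and is not a binding site.

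Cd68 (chromosome 11, 69664213 to 69666153) was at 182, 168 and 196 TPM at 0.2 mM and at 53.3, 58.2 and 60.0 TPM in its lowest, median and highest libraries at 0.8 mM. The 2 groups were far apart, and Cd68 fell by 1.64 ± 0.06 on the log2 scale (limma adjusted p = 4.212e-08). Msr1, scavenger receptor A, was at 12, 13.3 and 10.1 TPM and then between 10.2 and 17.7 TPM, a change of 0.31 that did not pass (limma adjusted p = 0.232). The mannose receptor Mrc1 stayed at or below 0.299 TPM in all 9 libraries, and Cd163, the haemoglobin scavenger receptor, was at 0 in the 3 libraries at 0.2 mM and at most 0.0674 TPM at 0.8 mM. These 2 genes mark resident and repair-type macrophages and were not tested.

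Pattern receptors gave 3 falls, 1 rise and 2 genes that did not pass, out of 6. Clec4d and Clec4e, which encode MCL and Mincle, C-type lectins that bind mycobacterial glycolipids and signal through Fcer1g, lie beside each other on chromosome 6 (123262111 to 123275265 and 123281789 to 123289870). Clec4e was at 325, 343 and 297 TPM at 0.2 mM and at 123, 142 and 167 TPM in its lowest, median and highest libraries at 0.8 mM. It fell by 1.17 ± 0.09 on the log2 scale (limma adjusted p = 5.079e-06), with no overlap between groups. Clec4d was at 180, 178 and 176 TPM at 0.2 mM and between 80.3 and 94.7 TPM at 0.8 mM, a fall of 0.98 ± 0.06 (limma adjusted p = 8.968e-07). The ratio of Clec4e to Clec4d stayed close, at a mean of 1.81 at 0.2 mM and 1.59 at 0.8 mM, and its libraries overlapped. Tlr2, the receptor for bacterial lipoproteins, was at 9.26, 9.04 and 10.6 TPM and then between 5.14 and 6.97 TPM, and fell by 0.62 ± 0.11 (limma adjusted p = 0.002019).

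Cd14, the co-receptor that hands lipopolysaccharide to TLR4, went the other way. It was at 24.0, 23.8 and 25.7 TPM at 0.2 mM and at 46.8, 58.8 and 75.6 TPM in its lowest, median and highest libraries at 0.8 mM, and rose by 1.24 ± 0.13 (limma adjusted p = 4.688e-05). Tlr4 itself was low and variable, at 2.39, 1.86 and 1.94 TPM and then between 0.369 and 3.16 TPM (limma adjusted p = 0.275, not passed). Clec7a, the beta-glucan receptor Dectin-1, was at 4.84 TPM and 2.92 TPM on average (limma adjusted p = 0.179, not passed). The summed level of the 6 pattern receptors was 541 ± 20.8 TPM and 303 ± 24.3 TPM, and Clec4d and Clec4e made up most of it.

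Among 22 other genes of pattern recognition, 13 were tested, of which 3 rose and 2 fell. Clec4n, encoding the lectin Dectin-2 and lying on chromosome 6 (123229843 to 123247021) near Clec4d, was at 16.5, 13.7 and 16.1 TPM and then between 27.7 and 37.5 TPM. It rose by 1.00 ± 0.12 on the log2 scale (limma adjusted p = 0.0001054), while both Clec4d and Clec4e fell. Clec4a2, an inhibitory lectin of the same cluster, was at 0.527, 2.00 and 0.0566 TPM at 0.2 mM and between 1.66 and 4.85 TPM at 0.8 mM, and rose by 1.38 ± 0.32 (limma adjusted p = 0.008828) with groups that overlapped. Clec4a2 passed the filter on low values mainly through the 0.8 mM libraries. Ly96, the MD-2 partner of TLR4, was at 37.5 and 21.6 TPM on average and fell by 0.77 (limma adjusted p = 0.0005087). Tlr13, a receptor for bacterial ribosomal RNA, fell from 1.70 to 0.515 TPM on average (limma adjusted p = 0.002526), but it passed the filter on low values through the 0.2 mM libraries alone. Nod1, a cytosolic sensor of peptidoglycan, rose from 1.89 to 3.75 TPM on average, but the call was lost without library 1 or library 2 at 0.2 mM (largest limma adjusted p = 0.07069).

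The phagocyte oxidase makes superoxide through a membrane pair, Cybb and Cyba, and cytosolic subunits that include Ncf1 and Ncf4. Of these 4 genes 3 fell, and their summed level was 617 ± 33.3 TPM and 405 ± 16.1 TPM. Cyba, the p22phox subunit (chromosome 8, 122424776 to 122432930), was at 549, 501 and 535 TPM at 0.2 mM and at 310, 335 and 349 TPM in its lowest, median and highest libraries at 0.8 mM. The groups did not overlap, and it fell by 0.66 ± 0.05 (limma adjusted p = 4.739e-06). Cybb, the gp91phox catalytic subunit on chromosome X, was at 71.4, 66.8 and 86.2 TPM and then between 51.2 and 65.4 TPM, and fell by 0.31 ± 0.10 (limma adjusted p = 0.03911). That call was lost when library 1 or 3 at 0.2 mM, or library 1, 5 or 6 at 0.8 mM, was left out (largest limma adjusted p = 0.1705, without library 3 at 0.2 mM). Cyba is also used by other oxidases and by cells outside the blood lineage, and the ratio of Cyba to Cybb was 7.13 at 0.2 mM and 5.60 at 0.8 mM.

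Ncf4, encoding p40phox, was at 13.5, 9.40 and 13.7 TPM and then between 6.94 and 10.3 TPM, groups that overlapped. Its fall of 0.50 ± 0.15 (limma adjusted p = 0.03156) was lost without library 1 or 3 at 0.2 mM or library 1, 3, 4 or 6 at 0.8 mM (largest limma adjusted p = 0.1279). Ncf1, encoding p47phox, was at 1.87, 1.41 and 1.83 TPM and then between 1.82 and 3.44 TPM (limma adjusted p = 0.0598, not passed). It shares 11.1% of its exon bases with Gtf2ird2 on the opposite strand. Of 10 other oxidase genes, 6 were tested, 0 rose and 1 fell. That gene was Hvcn1, the proton channel that offsets charge during superoxide production, at 7.57, 7.84 and 8.74 TPM and then between 2.17 and 4.42 TPM, a fall of 1.27 ± 0.17 (limma adjusted p = 0.0002983).

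Fcer1g and Tyrobp encode adaptors with activation motifs that carry the signals of Fc receptors, C-type lectins and TREM receptors. Fcer1g (chromosome 1, 171229572 to 171234365) was the most abundant of the 48 genes at 0.2 mM, at 980, 905 and 963 TPM. At 0.8 mM its lowest, median and highest libraries were at 852, 883 and 945 TPM, overlapping the others, and the change of -0.10 had a 95% interval from -0.20 to 0.01 (limma adjusted p = 0.1605). Under median-ratio scaling (limma adjusted p = 0.017) and quantile normalization it passed as a fall. Tyrobp, encoding DAP12 (chromosome 7, 30413760 to 30417585), was at 179, 163 and 202 TPM and then between 222 and 268 TPM, and rose by 0.41 ± 0.08 (limma adjusted p = 0.002637). The rise was lost under quantile normalization, where the change was 0.21 (limma adjusted p = 0.091). The ratio of Tyrobp to Fcer1g was 0.191 on average at 0.2 mM and 0.272 at 0.8 mM, and the groups' ratios did not overlap.

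The 4 Fc and Fc-related receptors gave 1 fall and 2 genes that did not pass, and Fcgr1 was not tested. Fcgr3, the low-affinity activating receptor CD16, was at 36.5, 39.6 and 42.9 TPM and then at 15.1, 20.4 and 23.1 TPM in its lowest, median and highest libraries. It fell by 0.96 ± 0.13 (limma adjusted p = 0.0002475). Fcgr2b, the inhibitory receptor that lies near it on chromosome 1, was at 25.5, 22.6 and 26.9 TPM and then between 25.2 and 34.7 TPM (limma adjusted p = 0.0621, not passed). The ratio of Fcgr2b to Fcgr3 ran from 0.572 to 0.697 at 0.2 mM and from 1.16 to 2.31 at 0.8 mM. The proteins of both genes have similar extracellular parts, and how reads common to them were assigned is not given in the sources used here. Pirb, an inhibitory receptor for MHC class I, was at 3.44 and 2.80 TPM (limma adjusted p = 0.275), and Fcgr1, the high-affinity receptor, stayed at or below 0.952 TPM.

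Of 12 other genes of Fc receptor signalling, 8 were tested, 1 rose and 3 fell. Lilrb4a, an inhibitory receptor, was at 8.08, 6.92 and 5.70 TPM and then between 1.56 and 3.08 TPM, a fall of 1.24 ± 0.17 (limma adjusted p = 0.0002983). Syk, the kinase that docks on phosphorylated Fcer1g and Tyrobp, fell from 4.65 to 2.74 TPM on average (limma adjusted p = 0.002926). Vav1, an exchange factor for Rac, fell from 3.33 to 1.59 TPM (limma adjusted p = 0.001755). Lyn, the Src family kinase upstream of Syk, was at 2.47, 1.91 and 2.04 TPM and then between 2.56 and 4.12 TPM. Its rise of 0.46 ± 0.15 (limma adjusted p = 0.0426) did not survive the removal of library 1, 2 or 3 at 0.2 mM or of library 1, 2, 3 or 4 at 0.8 mM (largest limma adjusted p = 0.145). It was also lost under median-ratio scaling, under quantile normalization, with no filter on low values and without ribosomal RNA and mitochondrial genes.

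Of the 4 MHC class II genes 2 fell, and their summed level was 50.7 ± 10.5 TPM and 39.5 ± 3.64 TPM. Cd74, the invariant chain that guides MHC class II to endosomes, was at 14, 10.6 and 10.3 TPM and then between 5.47 and 8.46 TPM, and fell by 0.62 ± 0.15 (limma adjusted p = 0.01109). Without library 1 at 0.2 mM it no longer passed (limma adjusted p = 0.06302). H2-Eb1, a beta chain, was at 1.62, 1.51 and 1.09 TPM and then between 0.174 and 1.11 TPM, groups that overlapped. It passed the filter on low values mainly through the 0.2 mM libraries. Its fall of 0.68 ± 0.19 (limma adjusted p = 0.02098) was lost without library 1 or 2 at 0.2 mM (largest limma adjusted p = 0.08567). H2-Ab1, the beta chain of the A molecule, was at 41.8, 26.4 and 34.6 TPM and then between 24.7 and 32.5 TPM (limma adjusted p = 0.331), and its alpha chain H2-Aa was at 3.41 and 2.33 TPM on average (limma adjusted p = 0.245).

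Of 13 other genes of this pathway 6 were tested, 1 rose and 1 fell. Ctss, encoding cathepsin S, the lysosomal protease that cuts the invariant chain, was at 395, 366 and 399 TPM and then between 214 and 239 TPM, a fall of 0.80 ± 0.05 (limma adjusted p = 1.106e-06). Ifi30, a lysosomal thiol reductase, was at 11.2, 14.8 and 10.7 TPM and then between 15.2 and 17.1 TPM. Its rise of 0.37 ± 0.10 (limma adjusted p = 0.0236) was lost without library 1 or 3 at 0.2 mM (largest limma adjusted p = 0.1049) and under both scalings. Ciita, the master regulator of MHC class II transcription, reached at most 0.0922 TPM in any library.

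Of the 3 costimulatory genes, 1 fell, 1 did not pass and 1 was not tested. Cd83, a marker of activated antigen-presenting cells, was at 2.62, 2.11 and 4.72 TPM at 0.2 mM and at 0.318, 0.415 and 0.792 TPM in its lowest, median and highest libraries at 0.8 mM. It fell by 1.46 ± 0.20 (limma adjusted p = 0.0002792), but it passed the filter on low values through the 0.2 mM libraries alone, so it had to differ to be tested. Cd86, the ligand of CD28, was at 0.915, 1.04 and 1.1 TPM and then between 0.225 and 0.814 TPM, with no overlap, and was not tested because only 2 libraries reached 1 TPM. Cd84, a SLAM family receptor, was at 7.39 and 5.16 TPM on average (limma adjusted p = 0.16).

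Of the 3 integrin genes of the leukocyte beta-2 family, 1 rose, 1 did not pass and 1 was not tested. Itgam was at 0.778, 0.629 and 0.657 TPM at 0.2 mM and at 1.31, 1.45 and 1.78 TPM in its lowest, median and highest libraries at 0.8 mM, and rose by 0.57 ± 0.13 (limma adjusted p = 0.007179). It passed the filter through the 0.8 mM libraries alone. It also shares 68.7% of its exon bases with a same-strand gene model, Gm49368, which was listed at 0, so its level is uncertain. Itgb2, the shared beta-2 chain CD18, was at 9.47, 9.33 and 8.12 TPM and then between 6.04 and 11.2 TPM (limma adjusted p = 0.857). Itgax, the CD11c gene of dendritic cells and some macrophages, stayed at or below 0.241 TPM and was not tested.

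Macrophage identity genes gave 1 rise, 2 falls and 3 genes that did not pass. Lyz2, encoding the lysozyme of macrophages and neutrophils (chromosome 10, 117277331 to 117282321), was at 565, 577 and 623 TPM at 0.2 mM and at 851, 999 and 1219 TPM in its lowest, median and highest libraries at 0.8 mM. It rose by 0.77 ± 0.11 (limma adjusted p = 0.0004568) with no overlap between the groups. Its near-identical copy Lyz1 was at 1.80 and 2.13 TPM, and reads common to both could be split between them. Ms4a7, a membrane protein of macrophages, was at 66.8, 69.1 and 54.4 TPM and then between 22.8 and 34.3 TPM, and fell by 1.18 ± 0.13 (limma adjusted p = 7.303e-05). Mpeg1, the pore-forming perforin-2, was at 13.3, 13.6 and 12.3 TPM and then between 6.25 and 8.82 TPM, and fell by 0.75 ± 0.11 (limma adjusted p = 0.0003983).

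Csf1r, Adgre1 and Aif1 did not pass. Csf1r, the receptor for the growth factor CSF1, was at 5.42, 5.39 and 6.37 TPM and then between 4.39 and 6.01 TPM, a change of -0.12 with a 95% interval from -0.38 to 0.14 (limma adjusted p = 0.49). An opposite-strand gene, Hmgxb3, shares 15.1% of its exon bases. Adgre1, encoding F4/80, was at 2.90, 2.26 and 2.74 TPM and then between 3.05 and 4.03 TPM. Its groups did not overlap, but the change of 0.33 did not pass (limma adjusted p = 0.0719). Aif1, the actin-binding protein IBA1, was at 0.565, 0.722 and 1.73 TPM and then between 0.724 and 5.75 TPM (limma adjusted p = 0.13).

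Of 14 other genes of macrophage growth and lineage, 10 were tested, 0 rose and 2 fell. Csf1, which encodes the main survival factor for macrophages, was at 10.3, 12.7 and 13.9 TPM and then between 5.82 and 7.10 TPM, and fell by 0.81 ± 0.11 (limma adjusted p = 0.0002967). Csf2, encoding GM-CSF, was at 38.4, 47.0 and 44.0 TPM and then between 14.3 and 29.8 TPM, and fell by 0.92 ± 0.19 (limma adjusted p = 0.004871). Among 18 further macrophage markers, 16 were tested, 2 rose and 3 fell, and 5 of the 18 are also in the pathway lists above. Lilrb4a and Ctss, already described, are among the 3 falls. The 18 genes summed to 2429 to 2647 TPM at 0.2 mM and 2587 to 4361 TPM at 0.8 mM. Most of that sum was Wfdc17, at 2039 ± 90.4 and 2839 ± 656 TPM. Its groups did not overlap, but its change of 0.45 did not pass (limma adjusted p = 0.05302). Trem2, the lipid receptor that signals through Tyrobp, was at 17, 10.9 and 17 TPM and then between 5.65 and 10.4 TPM, and fell by 0.93 ± 0.19 (limma adjusted p = 0.004197). Arhgdib and Fermt3 rose, by 0.44 (limma adjusted p = 0.02409) and 0.46 (limma adjusted p = 0.02712), and each call was lost without library 1 or 2 at 0.2 mM (largest limma adjusted p = 0.09904 and 0.1087).

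Of the 3 chemokine receptors 1 fell, and the other 2 were not tested. Ccr1, the receptor for CCL3 and CCL5, was at 3.12, 3.24 and 3.62 TPM and then between 1.26 and 2.49 TPM, and fell by 0.72 ± 0.16 (limma adjusted p = 0.006569). That call was lost with libraries 1 to 3 of each group alone, both with and without the replicate number as a block. Ccr2, the receptor that draws monocytes from the blood, was listed at 0 in all 9 libraries, and Cx3cr1, the fractalkine receptor, reached at most 0.192 TPM. Alox5ap, which presents arachidonic acid to 5-lipoxygenase for leukotriene synthesis, was at 2.85, 1.27 and 1.40 TPM and then between 2.98 and 7.73 TPM. It rose by 1.03 ± 0.24 (limma adjusted p = 0.008954), and the groups did not overlap.

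Marker genes differed in direction within the same libraries, and ratios of TPM between 2 of them give this without a reference to other genes. The ratio of Cd14 to Cd68 ran from 0.131 to 0.141 at 0.2 mM and from 0.810 to 1.42 at 0.8 mM. The ratio of Lyz2 to Cd68 was 3.24 on average at 0.2 mM and 17.6 at 0.8 mM, with no overlap. Set against Spi1, whose own change did not pass, Cd68 went from a mean ratio of 15.7 to 5.10, and Cd14 from 2.13 to 5.18. These ratios use genes already described above, are given with no test, and show unequal change within a library, not which gene changed.

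**Figure D4:**
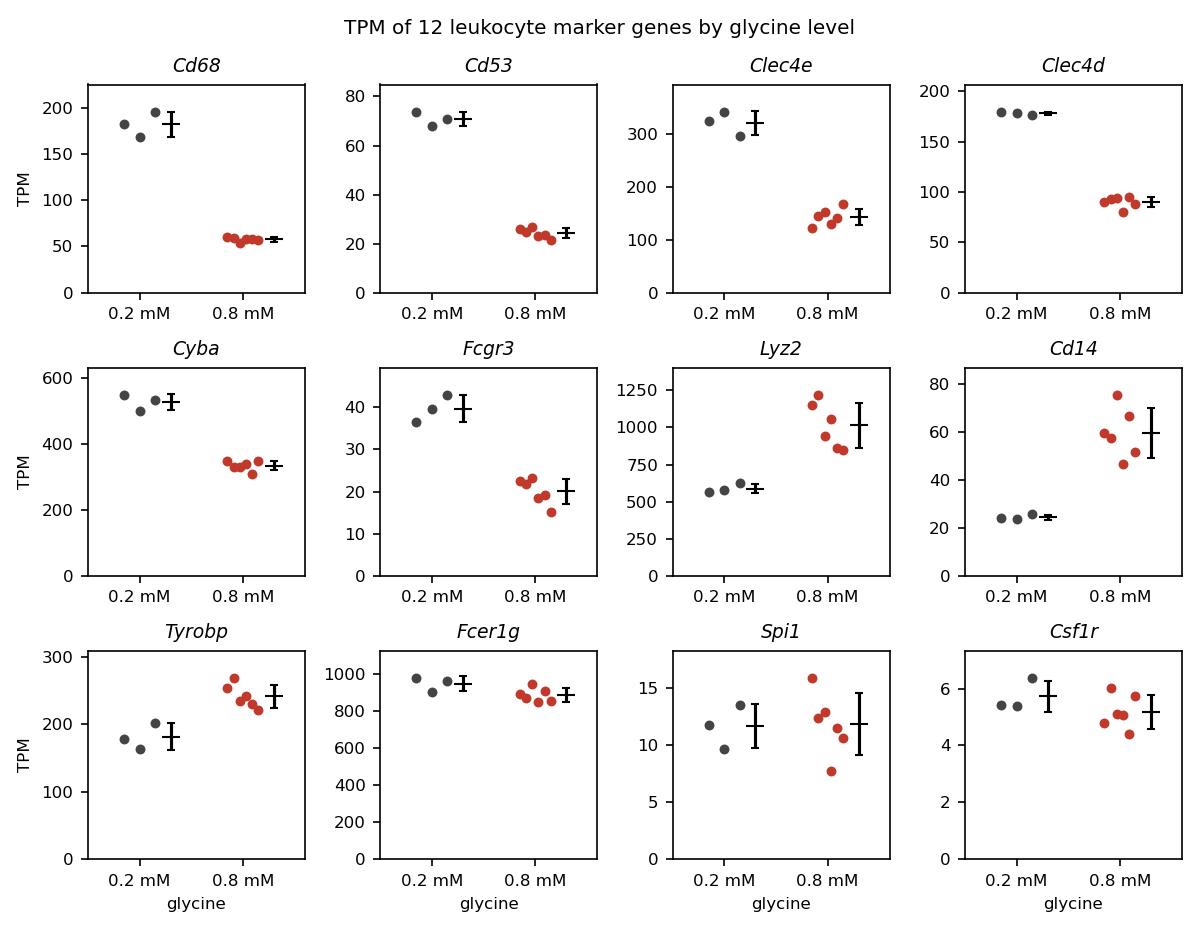
TPM in each library, with the group mean and SD, for 12 marker genes: 6 that fell, 3 that rose and Fcer1g, Spi1 and Csf1r, which did not pass. Cd68 lies at 168 to 196 TPM at 0.2 mM and 53.3 to 60.0 TPM at 0.8 mM, Cd14 at 23.8 to 25.7 TPM and 46.8 to 75.6 TPM, and Spi1 overlaps between the glycine levels.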

How the data were processed

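RNA sequencing of 9 libraries was used. The submitters' processing notes name mm10, DESeq2, StringTie 1.3.3 and HISAT2 2.0.5; their order, settings and annotation were not given in the sources used. What the authors deposited is a TPM table, that is, reads scaled by gene length and then to a common sum, so an abundant RNA lowers every other value, and read depth is unknown. No pair of libraries was identical. Rank correlations of libraries were 0.920 to 0.939 within groups and 0.879 to 0.888 between them.

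Changes were tested with limma 3.58.1 in R 4.3.3 (lmFit, eBayes with a trend, two-sided) on log2(TPM + 1), with 0.8 mM minus 0.2 mM and no further scaling. Adding 1 understates the change of low genes. Genes with at least 1 TPM in at least 3 libraries were kept, and p-values were Benjamini-Hochberg adjusted over all 10049. The test was run on simulated data with independent noise in each library. Such data hold no series effect and no technical replicates, so they cannot address those limits here. Positions and exon overlaps came from GENCODE M21 on GRCm38, and promoter windows and sequences from RefSeq on GRCm38.p6.

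The marker genes, the pathway and cell type lists and the tests were chosen with earlier results of these data known. Every marker gene tested is given with values, the others by range; from each pathway list up to 4 tested genes with the smallest p could be named, of which those that passed are given. Nod1, Ciita, S100a8, S100a9, Ltf, Ngp, Camp, Mmp8, Pecam1, Cdh5, Trem2, Arhgdib, Fermt3, Wfdc17 and the genes listed at 0 were chosen after their values were seen. The alternatives were other pseudocounts, filters and scalings, other variance models, each library left out and the replicate number as a block. Figures were drawn with matplotlib 3.10.9.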

Additional observations from a re-analysis of the deposited data

Results flagged for a closer look

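In the 6 libraries at 0.8 mM, 73 values were checked for a library far from the rest by Dixon's criterion, and 7 stood out; chance gives about 1 in 20. Ptprc was at 6.70 TPM in library 2, and the others lay between 1.99 and 3.59 TPM. In the same library Alox5ap was at 7.73 TPM, beside 2.98 to 4.71 TPM in the others. Library 5 had Lcp1 at 23.9 TPM (others 16.4 to 18.4 TPM), Camp at 29.4 TPM (others 15.1 to 18.7 TPM) and a summed level of the 4 phagocyte oxidase genes of 375 TPM, below the 404 to 419 TPM of the others. H2-Eb1 was at 1.11 TPM in library 4, above the 0.174 to 0.505 TPM of the others. Vav1 was at 1.09 TPM in library 6, below the 1.57 to 1.78 TPM of the others.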

How the results depend on the processing

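In the 21 alternatives run, 14 of the 21 marker genes that passed did so in every one that tested them, and no call changed direction. With 1 library left out, 17 kept the call in every run that tested them, and Cybb, Ncf4, Cd74 and H2-Eb1 lost it. Cd83 is among the 17, but without any 1 library at 0.2 mM it failed the filter on low values and was not tested. With libraries 1 to 3 of each group alone, 5 lost it in at least 1 run: Itgam, Cybb, Ncf4, Cd74 and Ccr1. Of the 20 that did not pass, 10 did so under some alternative. The marker genes' median change was -0.31 and became -0.20 with no filter on low values, -0.40 with a mean of at least 5 TPM, -0.40 after median-ratio scaling and -0.40 after quantile normalization. With each library left out it ranged from -0.38 to -0.26, the lowest without library 2 at 0.2 mM. Falls among all genes numbered 986, and 625 with the replicate number as a block on libraries 1 to 3 of each group; among the marker genes that block gave 5 rises and 13 falls, and the same 6 libraries without it 6 and 13. Deviations of same-numbered libraries correlated at 0.0383, 0.00233 and 0.107. Libraries 1 and 3 at 0.2 mM correlated best with the same number at 0.8 mM, and library 2 correlated best with library 1. The labels name no pairs and these correlations were weak, so the numbers were not taken as pairs. Deviations from means of 3 libraries cannot decide whether pairs exist. TPM keeps no depth, so low genes such as Itgam, Cd83 and H2-Eb1 rest on an unknown number of reads. The causes of these shifts were not tested.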
